A study of Mus musculus with 12 samples.

Results

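Glycolysis and the hypoxia response were followed through 36 genes, taken by symbol from the 55291 rows of a gene count table of differentiating mouse preosteoblasts. All 36 symbols were present. They cover glucose uptake, the enzymes from hexokinase to pyruvate kinase, the fate of pyruvate, the oxygen sensors of the HIF system and a set of genes known as hypoxia targets. The cells were MC3T3-E1, a wild-type mouse calvarial preosteoblast line, so every library came from 1 cell line and no animals were compared. Cells were grown in medium with 10% serum, and all groups, controls included, were put into bone differentiation 2 days after reaching confluence, which set day 0. One arm was given mouse interferon beta (IFN), labelled 50 mg/L, once differentiation began, and the control arm was not. Each arm was sampled at days 0, 14 and 21 with 2 libraries per group, 12 in all. Exposure to IFN at day 0 is not stated. Nothing says that replicates were separate cultures, so a p may measure technical spread only.

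Glycolysis splits glucose into pyruvate, which is either reduced to lactate or passed into mitochondria. When oxygen is scarce, prolyl hydroxylases such as EGLN1 and EGLN3 no longer mark the HIF-1 alpha protein for destruction, and HIF-1 binds a short DNA core, ACGTG or GCGTG, near its targets. Those targets include most glycolytic enzymes, glucose transporters, VEGF and the hydroxylases themselves. HIF-1 alpha is controlled mainly at the protein level, so its mRNA is not a measure of its activity. Osteoblasts are known to rely strongly on glycolysis.

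Library totals ran from 29772425 to 38908453 counts. Levels are CPM, counts relative to library size with TMM scaling, and fold changes are log2 values from edgeR. The words called, rose and fell stand for an edgeR p below 0.05 after Benjamini-Hochberg adjustment across the genes tested. Osteoblast markers were present, with all 8 reaching 1 CPM in some library and a summed level of 1216 to 9903 CPM. That sum moved with IFN: it was 1216 and 1220 CPM at IFN day 14 and 1749 and 1822 CPM at day 21, against 4085 to 6785 and 5265 to 9903 CPM in control, with Col1a1 lower at both days (-2.27 ± 0.43 and -2.65 ± 0.43, adjusted p = 0.0207 and 0.0157) and Ibsp at day 14 (-3.56 ± 0.64, adjusted p = 0.0202). Col1a1 made up most of that sum, and the 8 markers did not move together. By fold change, 1 was higher and 7 were lower with IFN at day 14. At day 21, 4 were higher (0 of them called) and 4 were lower. Dmp1 was at 450.6 and 464.2 CPM with IFN at day 21, against 56.1 and 6.10 CPM in control. The part of these markers in the results below was not tested. Of other cell types, 1 of 5 macrophage, 2 of 3 endothelial, 1 of 4 adipocyte, 1 of 4 chondrocyte and 0 of 3 muscle markers reached 1 CPM in any library. The adipocyte sum moved with time and IFN: it was 0.936 to 0.968, 6.88 to 8.03 and 25.7 to 40.4 CPM at IFN days 0, 14 and 21, and 1.44 to 2.92, 17.0 to 25.3 and 38.3 to 55.1 CPM in control. Fabp4 carried it, rising at both IFN steps (3.04 ± 0.26 and 2.13 ± 0.18) and lower with IFN at day 14 (-1.48 ± 0.31, adjusted p = 0.0382), while Adipoq and Cfd were at 0 counts at IFN day 14. The chondrocyte sum was 9.002 to 9.63, 5.55 to 6.04 and 14.3 to 19.8 CPM over the IFN days. In control it was 6.55 to 7.91, 10.0 to 11.7 and 18.9 to 47.6 CPM. The macrophage sum was 1.77 to 1.87, 4.87 to 5.17 and 7.54 to 9.13 CPM over the IFN days. In control that sum was 1.335 to 9.23, 4.245 to 11.5 and 7.92 to 9.36 CPM. Their part in the time-course results was not tested. All 8 interferon response genes checked were called higher with IFN at days 14 and 21. Control replicates differed far more than IFN replicates, with a biological coefficient of variation of 0.38 against 0.0635. Besides control day 14 replicate 1, described next, 2 other control libraries stood apart: control day 0 replicate 1 held 21070 CPM of the annotated ribosomal RNA gene CT010467.1, and control day 21 replicate 2 held 25660 CPM of the endoplasmic reticulum chaperone Hspa5, against 563 to 1827 CPM in the other 11. In bulk RNA, fewer cells of a type and less RNA per cell cannot be told apart.

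Control day 14 replicate 1 was set apart from the other 11 libraries by these genes. It was the highest of the 12 libraries for 27 of the 36 genes, while 10.26% of all 17289 tested genes were highest there. The difference between it and its own replicate had a median of 1.41 on the log2 scale, was positive for 34 genes and was above 1 for 28 (77.78%, against 9.121% of all tested genes). In the other 5 groups the median difference between replicates was -0.11, -0.08, -0.01, 0.07 and -0.05. A difference within a pair does not show a level raised in both libraries. The median log2 CPM of the 36 genes was 8.42 in control day 14 replicate 1 and 7.22 and 7.04 in the control day 21 pair. It was 6.29 to 6.63 in the remaining libraries. Because control day 14 replicate 1 had been singled out from earlier results, these values are a description with no test.

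The pH-regulating carbonic anhydrase Car9 differed most, with 164 CPM in replicate 1 and 6.80 CPM in replicate 2, a log2 difference of 4.58. The highest of the other 11 libraries had 40.9 CPM. Ankrd37, an ankyrin repeat gene known as a hypoxia target, followed with 16.8 against 0.753 CPM (4.38), then Ndrg1, a stress-induced gene, with 1094 against 108 CPM (3.34), and Higd1a, a mitochondrial hypoxia-induced gene, with 225 against 22.3 CPM (3.33). The mitophagy receptor Bnip3 was at 626 against 91.2 CPM (2.78), and the glucose transporter Slc2a1 at 590.1 against 102 CPM (2.53). The oxygen sensors Egln1 (517 against 95.3 CPM) and Egln3 (88.8 against 16.8 CPM) differed by 2.44 and 2.40. Pdk1, a kinase that inhibits pyruvate dehydrogenase, was at 303 against 61.5 CPM (2.30). These 9 genes differed most. The main glycolytic enzymes differed less: Hk1, Hk2, Gpi1, Pfkl, Pfkp, Aldoa, Tpi1, Gapdh, Pgk1, Pgam1, Eno1, Pkm and Ldha all lay between 1.15 and 1.77. The remaining hypoxia targets spread over much the same range, with Mxi1 at 1.83, Bnip3l at 1.66, Pfkfb3 at 1.27 and Kdm3a at 1.23, while Vegfa was at 556 against 278 CPM. Exons of Bnip3, Higd1a, Ankrd37 and Car9 overlap genes on the other strand, so reads may be shared there.

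A few genes differed little. Hif1a, which encodes the oxygen-regulated HIF-1 alpha subunit, was at 370.4 CPM in replicate 1 and 351 CPM in replicate 2, a difference of 0.08. Pfkfb4, an enzyme that sets the level of a phosphofructokinase activator, differed by 0.05, Pfkm by 0.39 and Eno2 by 0.60. Slc2a3 and Slc16a3 were lower in replicate 1 (-1.32 and -1.11), but these and Aldoc and Adm stayed below 1 CPM in every library. Slc2a1 was nearly as high in control day 21 replicate 2 (581 CPM), and Hk2, Car12 and Vegfa were higher there than in control day 14 replicate 1.

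**Figure D1:**
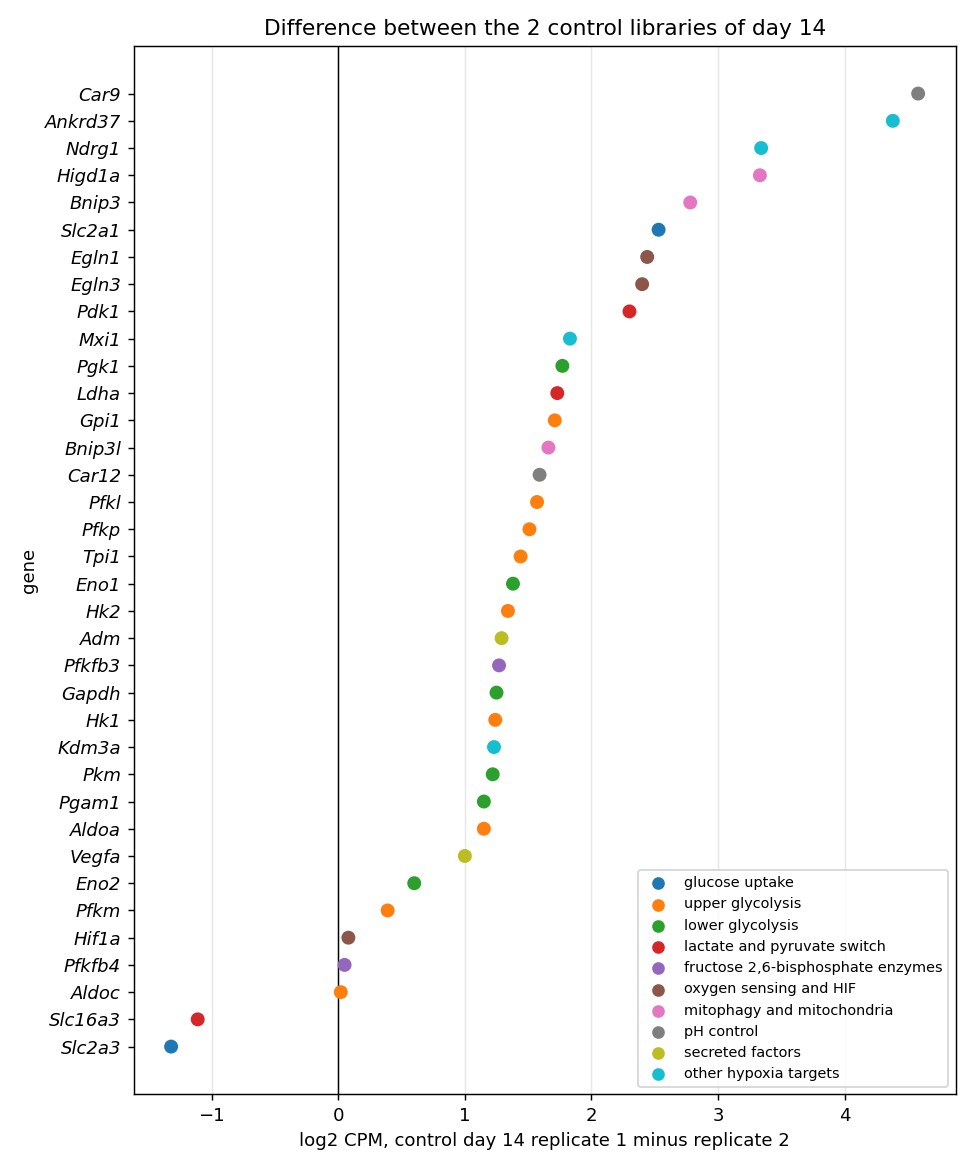
Log2 CPM of control day 14 replicate 1 minus replicate 2 for the 36 genes (x axis), 1 point per gene, coloured by role. Of the 36 points, 34 lie right of 0, with Car9 at 4.58, while Hif1a sits at 0.08.

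Other hypoxia targets differed in the same library. Of 25 further genes of that kind listed from general knowledge, 23 were tested, their median difference was 1.57 and 17 were above 1. Of the 23, 13 were highest of all libraries there and 7 in control day 21 replicate 2, which was above its own replicate by more than 1 for 8 (34.78%, against 15.18% of all genes). The 8 genes of the HIF machinery had a median of 0.40. The 12 genes of pyruvate transport into mitochondria and of pyruvate dehydrogenase and its control had -0.01. The 7 pentose phosphate genes had -0.16 and the 10 endoplasmic reticulum stress genes 0.14. Ranked among 9475 genes with a mean of at least 10 CPM, 9 of the 36 genes and 7 of the further targets stood in the top 50. The 10 highest named genes outside the 36 were Gpr35 (4.57), Nos2 (4.46), Lars2 (3.77), Apln (3.59), Dmp1 (3.43), Hilpda (3.18), Tnfrsf9 (3.16), Acsbg1 (3.07), Ero1l (3.05) and Fam162a (2.49). Of these, Hilpda, Ero1l and Fam162a were on the list of further targets and Dmp1 on that of osteoblast markers. The ribosomal RNA gene CT010467.1 also differed there, at 8629 against 99.2 CPM. Other high values were 21070 CPM in control day 0 replicate 1, 7240 CPM in IFN day 14 replicate 2 and 5914 CPM in control day 21 replicate 1. The median log2 CPM of the 36 genes in those libraries was 6.31, 6.49 and 7.22, against 8.42 in control day 14 replicate 1. The part of CT010467.1 in the result was not tested.

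Promoters are shown for the genes with the largest difference among those whose printed part held a HIF core. A match was thus a condition for being shown, so the matches in these lines carry no information on how common they are. RefSeq promoters (GRCm38.p6, 250 bases before to 50 after a start) were matched for 33 of the 36 genes, and Slc2a3, Bnip3l and Ndrg1 had no entry. Each line below gives, 5′ to 3′, the longest stretch of the 250 bases before the start outside any annotated exon. Capitals mark ACGTG or GCGTG on either strand, so CACGT and CACGC are the same cores read on the other strand, and neighbouring cores can share bases. Car12, a membrane carbonic anhydrase, was picked as a relative of Car9 with a smaller difference (1.59), and its printed part had no match. Car9 and Higd1a are not shown, since a rule on exon-free length, added after values were seen, left them out.
Ankrd37 (chr8:45999868-46000100, minus strand): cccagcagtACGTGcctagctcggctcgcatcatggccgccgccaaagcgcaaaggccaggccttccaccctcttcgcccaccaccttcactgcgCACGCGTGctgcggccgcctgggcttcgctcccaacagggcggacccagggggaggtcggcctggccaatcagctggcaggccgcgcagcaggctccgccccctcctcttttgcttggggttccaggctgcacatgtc
Bnip3 (chr7:138909520-138909756, minus strand): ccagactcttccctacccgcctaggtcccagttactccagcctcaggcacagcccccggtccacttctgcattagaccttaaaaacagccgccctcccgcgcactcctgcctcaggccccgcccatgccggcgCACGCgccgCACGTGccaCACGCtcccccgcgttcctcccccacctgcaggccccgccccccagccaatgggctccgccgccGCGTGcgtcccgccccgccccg
Slc2a1 (chr4:119108495-119108710, plus strand): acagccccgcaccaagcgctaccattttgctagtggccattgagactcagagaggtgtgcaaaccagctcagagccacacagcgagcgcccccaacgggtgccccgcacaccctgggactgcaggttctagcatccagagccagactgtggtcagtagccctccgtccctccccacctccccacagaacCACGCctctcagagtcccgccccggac
Egln1 (chr8:124949325-124949504, minus strand): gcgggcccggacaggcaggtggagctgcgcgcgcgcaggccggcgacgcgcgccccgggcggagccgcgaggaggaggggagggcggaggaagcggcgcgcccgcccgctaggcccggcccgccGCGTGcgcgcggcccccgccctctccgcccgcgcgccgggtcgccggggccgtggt
Car12 (chr9:66713436-66713685, plus strand): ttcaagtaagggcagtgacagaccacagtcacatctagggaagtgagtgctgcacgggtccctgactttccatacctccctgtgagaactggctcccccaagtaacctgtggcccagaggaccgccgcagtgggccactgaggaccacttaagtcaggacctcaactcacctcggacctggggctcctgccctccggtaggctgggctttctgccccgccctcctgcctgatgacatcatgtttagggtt

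ACGTG or GCGTG on either strand was found in 29 of the 33 genes (87.9%), and in 46.7% of all 27025 genes with an entry, over 300 bases. A gene with several starts counts if any start has a match; by promoter it was 74.5% of 51 against 43.8% of 32851. Using only the 250 bases before the start gave 87.9% and 41.5%. Gpi1, Tpi1, Eno2 and Car12 had no match before the start, and their replicate differences were 1.71, 1.44, 0.60 and 1.59. Thus 3 of the 4 genes without a match also differed by more than 1. Of the further targets with an entry, 15 of 17 (88.2%) had a match. The full E-box CACGTG, which overlaps the ACGTG core, was in 15.2% of the 33 genes and 8.09% of all genes. A match is only the presence of these letters, and the genes compared were not matched for base composition or expression level.

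**Figure D2:**
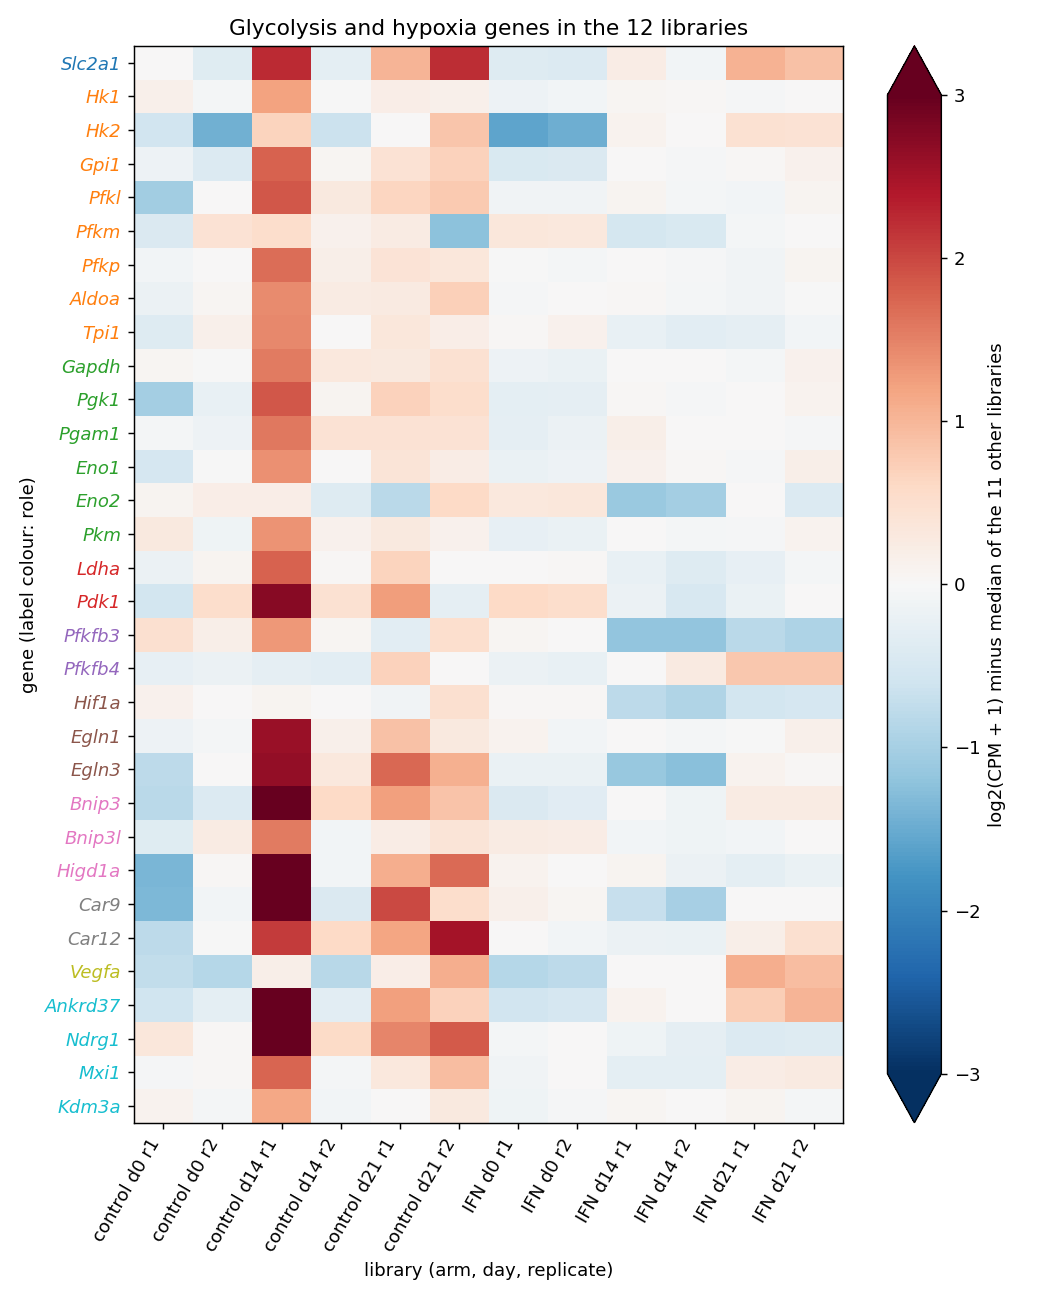
Log2(CPM + 1) of 32 genes in the 12 libraries, each minus its median in the 11 libraries other than control day 14 replicate 1. Columns are libraries, rows are genes coloured by role, colours stop at 3 and -3, and Slc2a3, Aldoc, Slc16a3 and Adm are left out because they stayed below 1 CPM. The column of control day 14 replicate 1 is raised for most rows, and Hif1a is lower in the 4 IFN libraries of days 14 and 21.

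Setting that library aside, the IFN arm gave the tightest view of how these genes changed over time. The comparison asked how differentiation with IFN moved them, and used the 6 IFN libraries alone, with 16259 genes and 35 of the 36 tested (Aldoc was too low). From day 0 to day 14, 15 of the 35 rose and 11 fell, where 28.1% of all genes rose and 25.5% fell (53.6% in either direction). The median of the 35 was 0.12, against 0.02 over all genes. From day 14 to day 21, 15 rose and 1 fell, where 16.0% of all genes rose and 13.5% fell (29.5% in either direction), and the median was 0.11. These counts rest on the small spread of the IFN replicates: in a fit of all 12 libraries, only Hk2, Eno2 and Hif1a remained called for the first interval and 0 genes for the second, where 10.7% and 0.00% of all genes were called.

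Hif1a fell to day 14 in both of those fits, which take the change from the same IFN libraries. In the IFN arm it was at 358 and 357 CPM at day 0, 202 and 188 CPM at day 14, and 240.0 and 246 CPM at day 21. The day 14 libraries lay below both day 0 libraries, and the day 21 libraries lay between. The log2 change was -0.86 ± 0.05 (SE, adjusted p = 9.91e-16) to day 14, and -0.87 with an adjusted p = 0.0182 in the 12-library fit. It then rose by 0.31 ± 0.05 (adjusted p = 7.81e-06). In control it stood at 386 and 353 CPM on day 0, 370.4 and 351 CPM on day 14, and 327 and 491 CPM on day 21. Hif1a lies on chromosome 12, 73901375 to 73947530 (mm10, plus strand).

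Egln3, the oxygen sensor whose transcription HIF itself raises, also fell and then rose. In the IFN arm it was at 11.5 and 11.6 CPM at day 0, 5.50 and 5.06 CPM at day 14, and 14.4 and 13.9 CPM at day 21. It fell by 1.12 ± 0.15 (adjusted p = 2.83e-07) and rose by 1.41 ± 0.15 (adjusted p = 1.23e-08). Egln1, the main oxygen sensor in most cells, stayed between 81.2 and 95.3 CPM in the 6 IFN libraries and control day 14 replicate 2, and neither step was called (log2 -0.03 and 0.09).

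Of the other HIF machinery genes, Arnt, the constant partner of HIF-1 alpha, fell by 0.50 ± 0.06 to day 14 and rose by 0.30 ± 0.06 after it. Cited2, a competitor of HIF-1 for its coactivator, fell by 0.88 ± 0.05 and then rose by 0.45 ± 0.05. Hif3a, a HIF subunit that can act as an inhibitor, had 0 and 4 counts at IFN day 0, then 163 and 187 counts (day 14), then 360 and 278 counts (day 21), and both rises were called (adjusted p = 1.7e-12 and 0.0102). It rose in control as well, from 6 and 0 counts to 511 and 337 at day 14 (adjusted p = 0.0343), and this was the only HIF machinery gene called in that arm. Without control day 14 replicate 1 its adjusted p was 0.0629, and 0 were called. Hif1an, the asparaginyl hydroxylase of HIF, lay between 55.9 and 79.1 CPM in all 12 libraries; with IFN it rose by 0.47 ± 0.07 and then fell by 0.31 ± 0.07. Egln2, a further prolyl hydroxylase, fell by 0.27 ± 0.07 at the later step. Vhl, which targets HIF-1 alpha for destruction, Egln2 and Arnt2 lay between 27.2 and 78.8, 43.2 and 62.6, and 5.98 and 28.6 CPM over the 12 libraries, the highest Vhl value being that of control day 14 replicate 1. Epas1, the HIF-2 alpha gene, had at most 33 counts in any library.

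The glucose transporter gene Slc2a1 and Hk2 rose at both steps with IFN. Slc2a1 was at 94.7 and 94.1 CPM at day 0, 147 and 118 CPM at day 14, and 258 and 231 CPM at day 21. It rose by 0.50 ± 0.10 (adjusted p = 0.00321) and then by 0.87 ± 0.10 (adjusted p = 0.000304), and the 3 days did not overlap. Hk2, the inducible hexokinase that commits glucose to the cell, was at 57.5 and 63.0 CPM, then 186 and 174 CPM, then 239.9 and 236 CPM. It rose by 1.59 ± 0.06 (adjusted p = 6.97e-21), and by 1.58 with an adjusted p = 0.0384 in the 12-library fit, and then by 0.39 ± 0.05. It lies on chromosome 6, 82725025 to 82774454. Hk1, the constant hexokinase, rose by 0.18 ± 0.05 and was not called afterwards. Control Hk2 had the same order of means but a wide spread, with 90.3 ± 38.1 CPM (SD, n = 2) at day 0 and 242 ± 95.1 CPM at day 21.

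Several enzymes further down the pathway rose to day 14 by 0.43 or less. Gpi1 (0.43 ± 0.05), Pfkl (0.14 ± 0.06), Gapdh (0.19 ± 0.05), Pgk1 (0.30 ± 0.05), Pgam1 (0.33 ± 0.05), Eno1 (0.28 ± 0.05) and Pkm (0.20 ± 0.05) rose to day 14, and none of these 7 was called from day 14 to day 21. Pfkp and Aldoa were called at neither step (0.03 and 0.02 to day 14). Tpi1, which links the triose phosphates, fell by 0.35 ± 0.06. The call of Pfkl was marginal (adjusted p = 0.0499).

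Pfkm and Eno2 fell to day 14 and rose in part afterwards. Pfkm, the muscle phosphofructokinase, was at 77.2 and 75.7 CPM at IFN day 0, 41.6 and 44.1 CPM at day 14, and 57.6 and 60.4 CPM at day 21, a fall of 0.82 ± 0.07 and a rise of 0.46 ± 0.07. Eno2, the neuronal enolase, was at 38.1 and 38.7 CPM, then 13.6 and 14.7 CPM, then 30.6 and 22.8 CPM. It fell by 1.43 ± 0.12 (adjusted p = 4.56e-11, and 0.0413 in the 12-library fit) and rose by 0.91 ± 0.12.

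At the end of the pathway, Ldha, which makes lactate from pyruvate, fell by 0.32 ± 0.06 and rose by 0.16 ± 0.06. Pdk1 was at 68.2 and 64.2 CPM at IFN day 0, 39.02 and 31.4 CPM at day 14 and 38.9 and 44.5 CPM at day 21, a fall of 0.90 ± 0.09 (adjusted p = 4.92e-09) with no call afterwards (0.24 ± 0.09, adjusted p = 0.0538). Its relative Pdk4, an inducible kinase of the same complex, went the other way and rose by 0.95 ± 0.05 and then 1.17 ± 0.05. Pfkfb3, which makes the main activator of phosphofructokinase, was at 24.8 and 23.6 CPM, then 9.78 and 9.93 CPM, then 13.0 and 11.9 CPM, a fall of 1.29 ± 0.12 and a rise of 0.33 ± 0.13. Pfkfb4 rose at both steps, by 0.39 ± 0.15 and 0.72 ± 0.14. Slc16a3, the lactate exporter, had between 8 and 33 counts per library and was not called.

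Among the hypoxia targets, Vegfa, the angiogenic growth factor, rose at both steps. It was at 274 and 287 CPM at IFN day 0, 495 and 501 CPM at day 14 and 1053 and 938 CPM at day 21, with rises of 0.84 ± 0.05 and 0.99 ± 0.05. Bnip3 rose by 0.34 ± 0.07 and 0.31 ± 0.07, and its relative Bnip3l fell by 0.32 ± 0.05. Ankrd37 rose by 1.36 ± 0.41 and 1.27 ± 0.36, from 0.453 and 0.526 CPM to 2.65 and 3.43 CPM. Car9 fell by 1.06 ± 0.17 and rose by 0.95 ± 0.17, and Car12 rose at the later step only (0.61 ± 0.20). Mxi1, a MYC antagonist, fell by 0.24 ± 0.08 and rose by 0.55 ± 0.08. Ndrg1 was the only gene called lower from day 14 to day 21 (-0.21 ± 0.07), and Higd1a and Kdm3a, a histone demethylase, were called at neither step. Adm, which encodes the vessel-dilating peptide adrenomedullin, had 0 counts at IFN day 0 and 19 at day 14, at least 6.50-fold higher against a floor of 3 counts per group.

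The calls at the 2 steps fell into several patterns. In 8 genes a fall was followed by a rise: Pfkm, Eno2, Ldha, Pfkfb3, Hif1a, Egln3, Car9 and Mxi1. In 6 genes a rise was followed by a rise: Slc2a1, Hk2, Pfkfb4, Bnip3, Vegfa and Ankrd37. Another 9 genes rose and then had no call: Hk1, Gpi1, Pfkl, Gapdh, Pgk1, Pgam1, Eno1, Pkm and Adm. Tpi1, Pdk1 and Bnip3l (3 genes) fell and then had no call, and 7 genes were called at neither step. Car12 (higher) and Ndrg1 (lower) were called at the later step only. No gene (0) rose and then fell, or fell and fell again. The share of all genes with each pattern was not taken, so these counts are a description only. The 2 steps share the day 14 libraries, so a low or high day 14 value enters both.

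**Figure D3:**
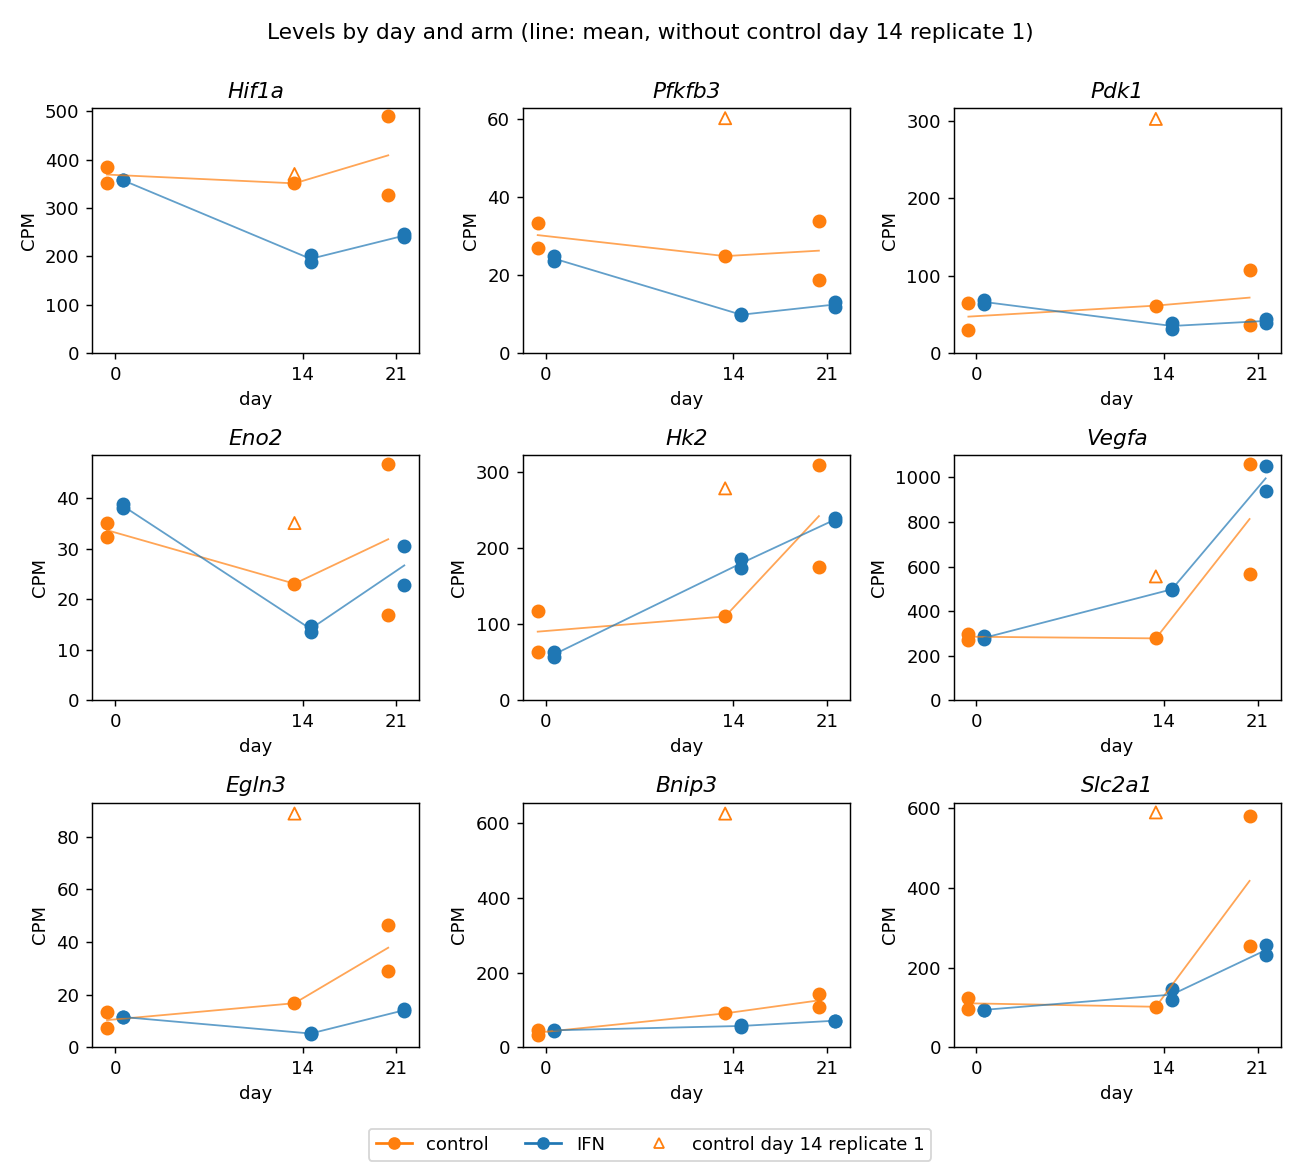
CPM of 9 genes by day (x axis, days; y axis, CPM from 0), with control in orange and IFN in blue; each point is a library, the lines join group means, and control day 14 replicate 1 is the open triangle, left out of its line. The genes were chosen after their values were seen; Hif1a and Pfkfb3 in the IFN arm fall below control at day 14 and stay there, while Hk2 and Vegfa have higher means at day 21 than at day 0 in both arms.

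Counts for the other pathway lists in the IFN arm are to be read against the shares of all genes, of which 28.1% rose and 25.5% fell to day 14, and 16.0% rose and 13.5% fell to day 21. Of 23 further hypoxia targets, 12 rose and 6 fell to day 14, among them Hmox1 (2.36 ± 0.05) and Gbe1 (1.72 ± 0.07), and 13 rose and 1 fell to day 21, among them Errfi1 (1.05 ± 0.06) and Bhlhe40 (0.61 ± 0.05). Of 7 pentose phosphate genes, 6 rose to day 14, led by Taldo1 (1.56 ± 0.05) and Pgd (1.18 ± 0.05) with G6pdx (0.39 ± 0.05), and 1 rose and 2 fell to day 21: Tkt (0.35 ± 0.06), G6pdx (-0.22 ± 0.05) and Taldo1 (-0.16 ± 0.05). Of the 12 genes of pyruvate transport and of pyruvate dehydrogenase and its control, 3 rose and 5 fell to day 14, among them Pdp1 (-0.65 ± 0.08) and Pdha1 (-0.43 ± 0.06). This list holds both subunits and inhibiting kinases such as Pdk4, so its counts give no single direction. To day 21, 3 rose and 2 fell, the latter Pdhx (-0.35 ± 0.10) and Pdhb (-0.22 ± 0.06). Of 11 other glycolytic isozymes and lactate genes 4 were tested. Eno3 fell by 1.82 ± 0.09 and rose by 0.89 ± 0.09, Ldhb fell by 1.44 ± 0.28, and Slc16a1 rose by 0.21 ± 0.07. All 10 endoplasmic reticulum stress genes were called to day 14, 9 higher and 1 lower, and 9 were lower to day 21. Their part in the changes above was not tested.

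Because a CPM also depends on gene length, levels within a step were compared as CPM per kilobase of merged exon. Over the 11 libraries other than control day 14 replicate 1, median levels were highest for Pgam1 (338 CPM per kb), Gapdh (299), Pgk1 (282) and Pkm (277), and lowest for Slc2a3 (0.0226). Hk2 made up 23.7% and 24.4% of hexokinase at IFN day 0, then 46.3% and 45.3%, then 54.3% and 53.3% on the later days. In control it was 33.7% and 24.2%, then 36.8% and 35.2%, then 42.6% and 57.3%. The share of Hk2 was thus higher at day 21 than at day 0 in both arms, with no overlap between those days.

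Pfkfb4 made up 23.8% and 23.6% of the Pfkfb transcripts at IFN day 0 and 52.4% and 53.7% at day 21, while Pfkfb3 went from 48.5% and 47.4% to 26.4% and 24.9%. In control at day 21 the replicates differed, with Pfkfb4 at 42.8% and 26.2%. Pdk4 went from 53.9% and 55.4% of the pyruvate dehydrogenase kinases to 88.2% and 85.1% with IFN, and from 56.5% and 52.0% to 71.2% and 90.2% in control. Pdk1 was 18.1% in control day 14 replicate 1 and 5.27% in replicate 2. Eno3, the muscle enolase, went from 22.4% and 20.8% to 6.35% and 6.15% at IFN day 14, and from 20.01% and 19.9% to 4.81% and 7.76% in control. Bnip3 went from 37.4% and 39.7% of the Bnip3 and Bnip3l pair to 54.9% and 53.4% with IFN, and reached 77.0% in control day 14 replicate 1. These shares carry no test.

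**Figure D4:**
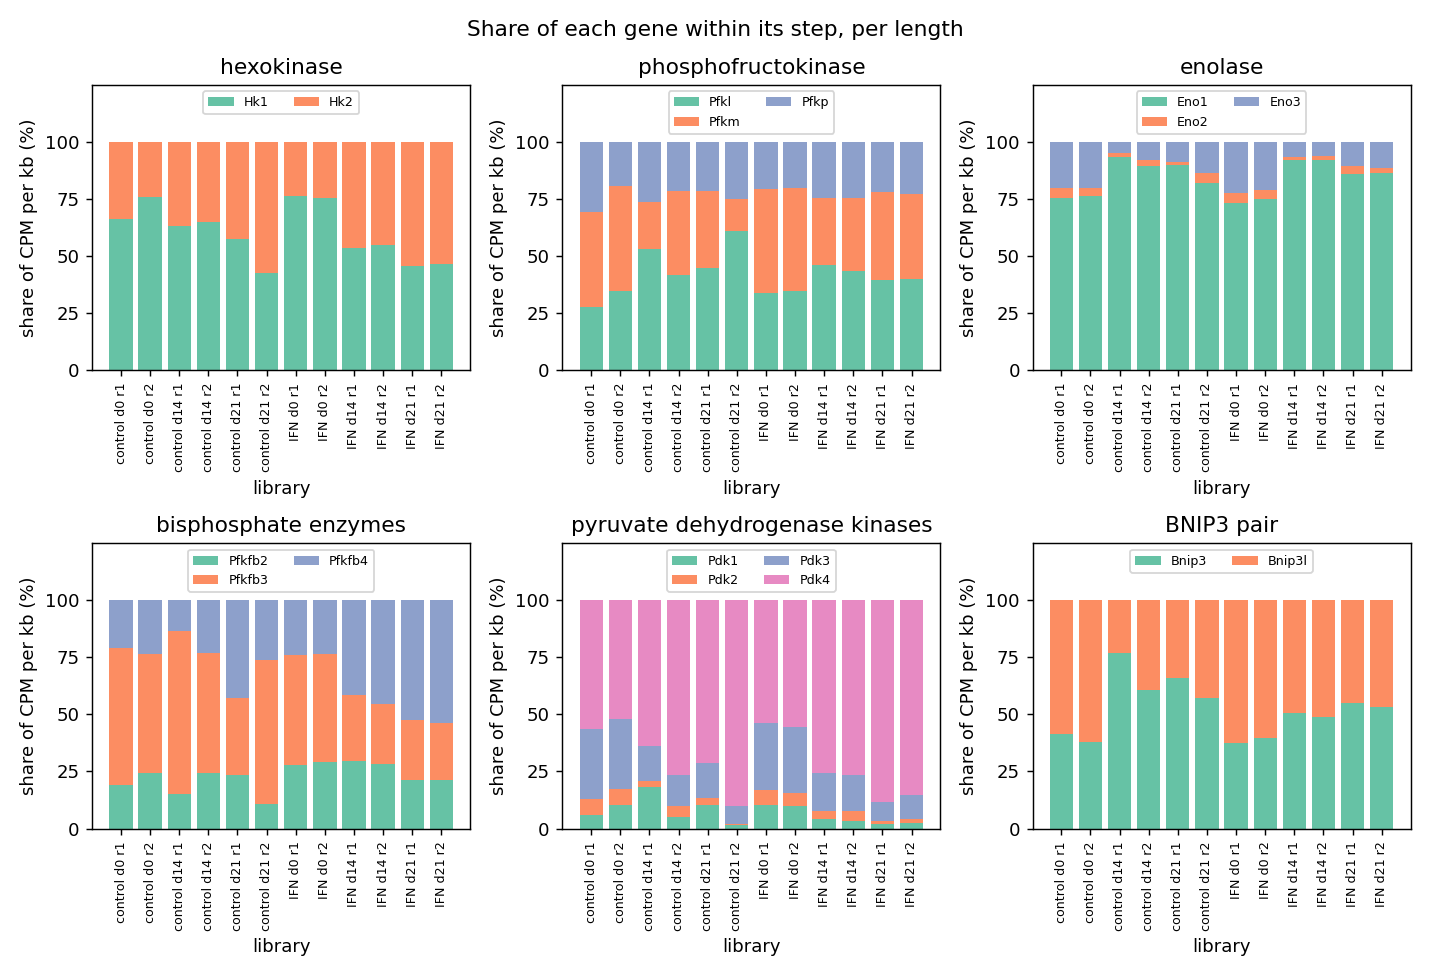
Share of each gene in CPM per kilobase within 6 steps (y axis, percent, stacked to 100), 1 bar per library. In both arms the Hk2 and Pdk4 parts are larger at day 21 than at day 0 and the Eno3 part is smaller at day 14.

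IFN was then set against control at the same day, in a fit of all 12 libraries with 17289 genes and all 36 tested. That fit shared its spread per gene between the arms, so its p values do not measure the wider spread of control alone. At day 14, 0 were higher and 3 were lower, where 1.30% of all genes were called higher and 0.995% lower (2.29% in either direction). The 3 were Pfkfb3 (9.85 ± 0.107 CPM with IFN against 42.5 ± 24.9 CPM in control, log2 -2.11 ± 0.39, adjusted p = 0.0195), Egln3 (5.28 ± 0.311 against 52.8 ± 50.9 CPM, -3.32 ± 0.63, adjusted p = 0.023) and Hif1a (195 ± 10.5 against 361 ± 13.7 CPM, -0.89 ± 0.20, adjusted p = 0.0446). Pfkfb3 lies on chromosome 2, 11471433 to 11554077, and Egln3 on chromosome 12, 54178981 to 54203860. Without control day 14 replicate 1 none of the 36 was called (0, with 0.944% of all genes called), and the changes were -1.33 (adjusted p = 0.118), -1.67 (adjusted p = 0.0996) and -0.85 (adjusted p = 0.198). The Hif1a change was thus about as large without that library, and those of Pfkfb3 and Egln3 were smaller. Without control day 14 replicate 2, 26 were called, all lower (2.60% of all genes were called). Leaving out either IFN day 14 library also ended the calls (0). Of the other fits, DESeq2 called 16 (6.68% of all genes), edgeR with no filter on low counts 27 (3.46%) and limma voom with library weights 20 (9.64%), all lower. In an edgeR fit of only the groups compared, Hif1a was called (-0.9, adjusted p = 0.0211). Pfkfb3 and Egln3 were not called in it (adjusted p = 0.0673 and 0.102).

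The rest of the day 14 pattern depended on the same library. The median of the 36 was -1.15 (-0.01 over all genes) with 33 of 36 negative, and -0.26 with 26 negative without it. At an unadjusted p below 0.05 there were 25 lower genes (69.4%, against 13.8% of all genes in either direction). The groups did not overlap for 1 higher and 23 lower genes, where 28.6% and 27.1% of all genes were higher and lower without overlap. Set against control day 14 replicate 2 alone, both IFN libraries were below it for 24 of the 36 (66.67%, against 41.19% of all genes) and above it for 8 (22.22% against 42.22%), and for 21 the mean IFN level was within 0.5 of it on the log2 scale (66.2% of all genes were). Examples of genes near it were Egln1 (82.6 and 85.4 against 95.3 CPM), Higd1a (20.9 and 25.2 against 22.3 CPM) and Gpi1 (452 and 467 against 488 CPM). Hk2 and Vegfa were higher with IFN than in that replicate: Vegfa was at 495 and 501 against 278 CPM.

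**Figure D5:**
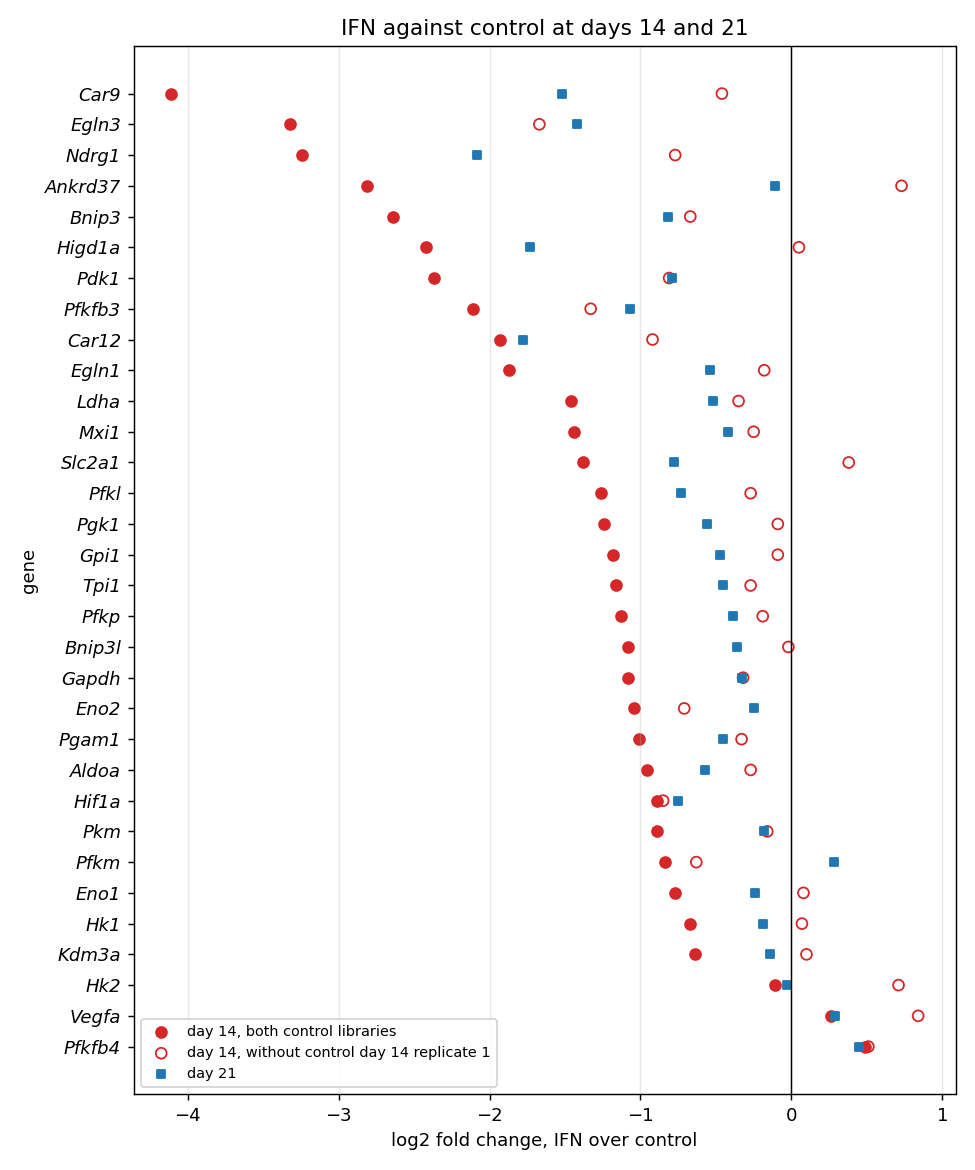
Log2 fold change of IFN over control (x axis) for 32 genes, at day 14 with both control libraries (filled red), at day 14 without control day 14 replicate 1 (open red) and at day 21 (blue squares); Slc2a3, Aldoc, Slc16a3 and Adm are left out because they stayed below 1 CPM. Most open points lie nearer to 0 than the filled ones, while the Hif1a points lie together at -0.89, -0.85 and -0.75.

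At day 21, 0 of the 36 were called (0.995% of all genes were), 5 (13.9%) were below an unadjusted p of 0.05, as were 13.1% of all genes, and DESeq2 called 2 (4.25% of all genes), Hif1a and Car12. The Ndrg1 change was -2.07 without control day 14 replicate 1 and also -2.07 without control day 14 replicate 2. Neither library is in the day 21 groups, so each enters this comparison only through the shared fit. With all libraries the median of the 36 was -0.45. Of genes without overlap 3 were higher and 23 were lower, where 20.7% and 18.6% of all genes were. The largest changes were those of Ndrg1 (54.5 and 55.2 CPM with IFN against 202 and 263 CPM, log2 -2.08 ± 0.72, adjusted p = 0.259) and Car12 (6.17 and 7.75 against 13.3 and 34.7 CPM, -1.78 ± 0.55, adjusted p = 0.219). Slc2a3 had a larger fitted value from 2 against 13 counts. Hif1a was at 240.0 and 246 CPM against 327 and 491 CPM (-0.75 ± 0.19, adjusted p = 0.143, and 0.0183 by DESeq2). Endoplasmic reticulum stress genes moved with control day 21 replicate 2, their median fold change at day 21 being -3.05 for all 10 genes, and their part here was not tested. Leaving that library out, 0 of the 36 were called (0.961% of all genes). Leaving out control day 21 replicate 1, 6 were: Hif1a, Eno2, Pfkfb3 and Car12 lower, Pfkm and Pfkfb4 higher, where 20.5% of all genes were called.

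At day 0, 0 of the 36 were called (0.00578% of all genes were), 0 were below an unadjusted p of 0.05 (2.20% of all genes were), and 0 were called by DESeq2 (also 0.00578% of all genes). The median was 0.02, and Car9 (0.76 ± 1.01) and Hk2 (-0.58 ± 0.41) had the largest changes besides Slc2a3, which rests on few counts. Groups did not overlap for 2 higher and 9 lower genes, where 17.5% and 18.7% of all genes did not. Of the other pathway lists, only the pentose phosphate gene Taldo1 was called at day 14 (0.69 ± 0.15, adjusted p = 0.0375), and 0 genes of these lists were called at that day without control day 14 replicate 1. The 23 further hypoxia targets had a median of -0.93 at day 14, of 0.02 without that library, and of -0.80 at day 21. None (0) was called at day 21 with all libraries. Without control day 14 replicate 1 the day 21 changes of Ero1l, Gys1 and Tfrc were -1.64, -1.11 and -1.63. That library enters the day 21 comparison only through the shared fit.

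In the control arm, fitted on its own 6 libraries, 0 of 35 genes were called from day 0 to day 14 (0.211% of 16103 genes were), with 17 (48.6%) below an unadjusted p of 0.05, against 8.18% of all genes, and 6 called by DESeq2 (2.49% of all genes). Bnip3 (3.18 ± 0.77, adjusted p = 0.251) was called in the 12-library fit (adjusted p = 0.0332). The median was 1.13. Without control day 14 replicate 1 it was 0.25, with 0 called (0.164% of all genes). Ankrd37 (3.88 ± 1.23, adjusted p = 0.403) and Car9 (3.81 ± 1.28, adjusted p = 0.448) had the largest changes, besides Adm with 0 counts at day 0 and 37 at day 14. From day 14 to day 21, 0 were called (0.00% of all genes), with 0 below an unadjusted p of 0.05 (6.82% of all genes were) and 0 called by DESeq2 (0.508% of all genes). The median was -0.60, and 0.39 without that library, again with 0 called (0.00%). Car9 (-1.62 ± 1.16) and Bnip3 (-1.50 ± 0.72) then turned positive, at 2.01 and 0.46.

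The change from day 0 to day 14 was finally compared between the arms. None of the 36 differed by this interaction (0 called, 0.596% of all genes called, 19 or 52.8% below an unadjusted p of 0.05 against 11.1% of all genes, and 4 called by DESeq2, with 3.34% of all genes). The median was -1.19 with all libraries and -0.34 without control day 14 replicate 1 (0 called, 0.212% of all genes). Without control day 14 replicate 2, 17 were called (1.08% of all genes). Car9 (-4.87 ± 1.49, adjusted p = 0.251) and Egln3 (-3.47 ± 0.85, adjusted p = 0.144) had the largest values besides Aldoc, which had 0 counts in both IFN day 14 libraries. A fall or rise seen only in the IFN arm was therefore not shown to differ from control.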

How the data were processed

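The submitters' processing notes name HISAT2, SAMtools, featureCounts and mm10; versions, annotation and use of strand are not given in the sources used here. Per the labels, each of the 12 libraries began with at least 3 µg of RNA. The deposited values are a raw count per gene symbol and library. Pkm and Pfkm share exon bases with same-strand genes, Bnip3, Higd1a, Ankrd37, Gpi1 and Car9 with opposite-strand genes (9.3% to 26.4%), and Gapdh and Eno1 have near copies, so their counts are uncertain.

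Tests were run with edgeR 4.0.16 under R 4.3.3: filterByExpr, TMM, a mean for each group, robust glmQLFit and glmQLFTest, Benjamini-Hochberg. IFN against control and the interaction used 12 libraries (17289 genes, 6 residual degrees of freedom), with a spread per gene shared by both arms. Changes over time used the 6 libraries of an arm (IFN 16259 genes, control 16103, 3 degrees of freedom), because the arms were already known to differ in spread. Alternatives were other scalings and filters, DESeq2 1.42.0, limma 3.58.1 voom with library weights, a replicate block, other sets of groups and libraries left out. SE is the log2 fold change over the root of F, and log2 CPM used a prior count of 2. Positions and lengths come from GENCODE M21 (mm10). The procedure was tested on simulated data with the same spread per gene in every library. The unequal spread of the arms was therefore not covered. No replicate pair agreed within counting noise.

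The 36 genes, the lists, the tests and the libraries set apart were chosen with earlier results of these data known. All 36 were described. Those given with a test were the genes called, or the 3 largest changes where fewer were called, and up to 3 called genes per other list; a few others are given as examples. A further gene that this rule names is not reported here. Comparing IFN with control day 14 replicate 2 alone was chosen after seeing the data. The floor of 3 counts covers counting error only.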

Additional observations from a re-analysis of the deposited data

How the results depend on the processing

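The count of the 36 genes called at day 14 (3, all lower) became 16 with DESeq2, 27 with no filter on low counts, 20 with limma voom and library weights, 6 with both control day 0 replicate 1 and control day 21 replicate 2 left out, and 1 with only the groups compared, all lower in each case; leaving out 1 library gave 0 to 26. At day 21 (0) it became 2 with DESeq2, 10 with no filter, 1 without those 2 control libraries, and 0 to 6 with 1 library left out; at day 0 it was 0 in every fit that left out a library. In the IFN arm the all-library fit gave 3 in place of 26 and 0 in place of 16, and leaving out 1 library gave 23 to 28 and 12 to 22. In the control arm the change to day 14 (0) became 6 with DESeq2, 12 with no filter and 1 in the all-library fit, with 0 to 6 when 1 library was left out, and the change to day 21 stayed at 0 (0 to 0). The interaction (0) became 4 with DESeq2, 20 with no filter, 2 with voom and 1 without the 2 control libraries, and 0 to 17 with 1 library left out. Where the share of all genes called in a fit is not given above, the count of the 36 genes has nothing to be read against. The cause was not tested.

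The 3 calls at day 14 held in 9 (Pfkfb3), 5 (Egln3) and 4 (Hif1a) of 12 fits with 1 library left out. With the replicate block, 2 genes were called at day 14, 26 and 18 in the IFN arm and 0 elsewhere; of 15 correlations between groups 2 were over 0.1 (-0.05 to 0.11), so the numbers were not taken to pair libraries. Of single genes, Slc2a3 at day 0 ranged from -1.03 (without IFN day 0 replicate 1) to 6.26 with 1 library left out. From day 14 to 21 in control, Bnip3 ranged from -2.31 to 0.46 and Car9 from -2.58 to 2.01, positive without control day 14 replicate 1. With the longest transcript as length, shares moved by -15.07 to 2.14 points; the Hk2 share with IFN was then 14.7%, 31.4% and 38.7% by day. With 2 libraries a group, leaving out 1 assumes the lone library varies like the others. Depth limits Slc2a3, Aldoc, Slc16a3 and Adm.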
